A study of Homo sapiens with 9 samples.

Results

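The transcripts of 10 genes of Wnt signalling were followed in 9 RNA-seq libraries of MCF10A, a human mammary epithelial cell line that does not form tumors. The genes were 5 secreted ligands (WNT5A, WNT5B, WNT7A, WNT7B and WNT10A), 2 secreted inhibitors (DKK1 and SFRP1) and 3 intracellular genes (AXIN2, LEF1 and TCF7L1). They were taken by symbol from a table of 25369 symbols, and all 10 were among the 16117 genes that passed a filter on low counts.

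The cells carried a retroviral pBABEpuro vector, either with a constitutively active HER2 whose name holds the V659E mutation or empty (EV). HER2 is the receptor tyrosine kinase encoded by ERBB2. Each line gave 1 control library on a soft polyacrylamide hydrogel of 0.5 kPa and 2 libraries on plastic with siRNA against YAP and TAZ, 1 for each of the reagents numbered 1 and 3 (siRNA 1 and siRNA 3). Control siRNA on plastic gave 1 library in HER2 cells and 2 in EV cells (A and B). All cells were transfected, replated 24 h later and harvested after another 24 h, and were kept in medium with horse serum, insulin, EGF, hydrocortisone and cholera toxin. Whether a transduced line was a pool or a clone was not given in the sources used here. Nothing in the labels says that EV controls A and B came from separate cultures, so their spread may be technical. The 2 siRNA libraries of each line got different reagents, so their spread includes the difference between reagents. The p-values measure the spread between these libraries.

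Wnt proteins are secreted, lipid-modified ligands that bind Frizzled receptors. In the canonical branch they stabilise beta-catenin, which joins TCF and LEF factors in the nucleus and switches on target genes such as AXIN2. In other branches they act on cell polarity and movement. DKK1 blocks the co-receptors LRP5 and LRP6, and SFRP1 binds the ligands themselves. In the breast, Wnt signals are known for maintaining basal and progenitor cells.

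Total counts ran from 24425556 in the HER2 control library to 78945981 in the EV library with siRNA 3. Levels are given as CPM, read counts relative to library size after TMM scaling, and 3 counts equal 0.0371 to 0.131 CPM depending on the library. ERBB2 stood between 361 and 614 CPM in HER2 libraries, against 57.7 to 95.5 CPM in EV libraries. With siRNA, 8.49% to 16.9% of YAP1 and 17.1% to 28.4% of WWTR1, the gene of TAZ, were left. Summed over 9 markers of mammary epithelium, the level was 432 to 946 CPM in HER2 libraries, against 1371 to 7038 CPM in EV libraries. KRT5 was the largest part of this sum in every library. CDH1, the epithelial cadherin, stood at 0.239 to 1.65 CPM in HER2 libraries, against 144 to 1111 CPM in EV libraries. KRT8, KRT18 and KRT19 overlapped between lines. The other markers of this list were lower in every HER2 library than in any EV library, as were 12.5% of all genes. Over 7 mesenchymal markers the sum was 2373 to 6482 CPM in HER2 libraries and 1487 to 9925 CPM in EV libraries, most of it VIM and FN1. Of these, the repressors ZEB1 and ZEB2 did not overlap between lines, and the other 5 did. ZEB1 stood at 55.5 to 125 CPM in HER2 libraries and 12.8 to 30.8 CPM in EV libraries. ZEB2 stood at 73.3 to 148 CPM in HER2 libraries and 8.54 to 33.2 CPM in EV libraries. The share of all genes that were higher in every HER2 library is not given here. For 7 fibroblast markers the sum was 5.95 to 30.7 CPM in HER2 and 6.02 to 107 CPM in EV libraries, for 4 endothelial markers 13.1 to 37.9 CPM in HER2 and 3.19 to 23.3 CPM in EV libraries, and for 5 leukocyte markers 29.5 to 52.8 CPM in HER2 and 18.3 to 75.3 CPM in EV libraries. The leukocyte gene CD3E had 0 counts in all 9 libraries. The part of the epithelial and ZEB differences in the results on Wnt genes was not tested, and fewer cells with a transcript and less of it in each cell cannot be told apart in bulk RNA.

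The promoters of DKK1, WNT7A and WNT10A are shown because DKK1 passed the test in both the comparison of lines and, in 1 of 2 models, that of YAP/TAZ siRNA, while WNT7A and WNT10A were present in EV cells and near 0 in HER2 cells. Each runs from 250 bases before to 50 bases after the transcription start, 5′ to 3′ on the gene's strand, from RefSeq on GRCh38.p14. DKK1 lies at chr10:52314031-52314330 on the plus strand, WNT7A at chr3:13880022-13880321 on the minus strand and WNT10A at chr2:218880602-218880901 on the plus strand. Capitals mark matches, on either strand, to the motifs searched. These were the TCF/LEF words CTTTGAA and CTTTGAT and also CTTTGTA and CTTTGTT, the word GGAATG of TEAD, the DNA-binding partner of YAP and TAZ, the word TGANTCA of AP-1 and the E-box CACCTG.
DKK1: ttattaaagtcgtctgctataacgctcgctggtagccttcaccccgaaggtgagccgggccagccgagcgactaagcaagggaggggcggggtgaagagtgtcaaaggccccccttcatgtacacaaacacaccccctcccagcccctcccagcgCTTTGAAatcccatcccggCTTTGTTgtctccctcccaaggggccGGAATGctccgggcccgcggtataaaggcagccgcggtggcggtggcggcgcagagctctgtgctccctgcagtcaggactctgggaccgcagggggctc
WNT7A: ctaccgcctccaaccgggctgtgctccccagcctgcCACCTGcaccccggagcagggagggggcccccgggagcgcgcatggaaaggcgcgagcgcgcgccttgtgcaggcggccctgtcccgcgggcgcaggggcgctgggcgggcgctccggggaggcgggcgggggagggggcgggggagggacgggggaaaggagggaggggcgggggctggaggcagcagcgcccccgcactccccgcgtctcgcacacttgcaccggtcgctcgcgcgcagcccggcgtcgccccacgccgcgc
WNT10A: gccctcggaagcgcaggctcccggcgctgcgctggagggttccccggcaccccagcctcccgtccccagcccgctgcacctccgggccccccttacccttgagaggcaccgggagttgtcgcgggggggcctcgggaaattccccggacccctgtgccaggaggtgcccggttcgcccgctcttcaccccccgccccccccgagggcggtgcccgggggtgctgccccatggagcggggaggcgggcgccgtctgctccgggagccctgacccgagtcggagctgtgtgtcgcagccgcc
In DKK1 the capitals are the TCF/LEF words CTTTGAA at -95 to -89 and CTTTGTT at -76 to -70 and the TEAD word GGAATG at -50 to -45, with -1 the last base before the start. In WNT7A they are the E-box CACCTG at -214 to -209, and WNT10A held none of these words. Of 35116 promoters in the table, 13.8% held a TCF/LEF word, 14.0% the TEAD word, 7.71% the AP-1 word and 20.6% the E-box, so each match is a common one. WNT7A and WNT10A were rich in G and C, at 80.3% and 76.7% of bases against a median of 58.7% over all promoters. Of the 10 genes, 7 had a promoter in the table. DKK1 was the one of these 7 with a TCF/LEF or TEAD word, and the first of 2 WNT5A promoters also held an E-box. A match is a description of the letters and not a measured binding site.

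The lines were first compared over their 3 settings together, which were control siRNA on plastic, the hydrogel, and YAP/TAZ siRNA. In HER2 cells 3 of 5 ligands and both inhibitors were lower. Of the 10 genes, 5 fell and 0 rose: WNT5B, WNT7A, WNT10A, DKK1 and SFRP1 (edgeR's quasi-likelihood test on the 6 group means, Benjamini-Hochberg adjusted over all genes). Across all genes tested, 25.8% were called in this comparison, 15.6% as lower. The median log2 fold change of the 10 genes was -2.05 with groups at 0 counts set to 3 counts (-3.44 as fitted), against -0.04 (-0.09 as fitted) over all genes. A second model held a common difference of siRNA 3 over siRNA 1 for HER2 and EV cells, called the reagent term here. It had 6 genes fall, LEF1 being added, where 49.5% of all genes were called, 27.2% as lower. For WNT7A, WNT10A and SFRP1, each of the 4 HER2 libraries lay below each of the 5 EV libraries, as did 12.5% of all genes.

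**Figure D1:**
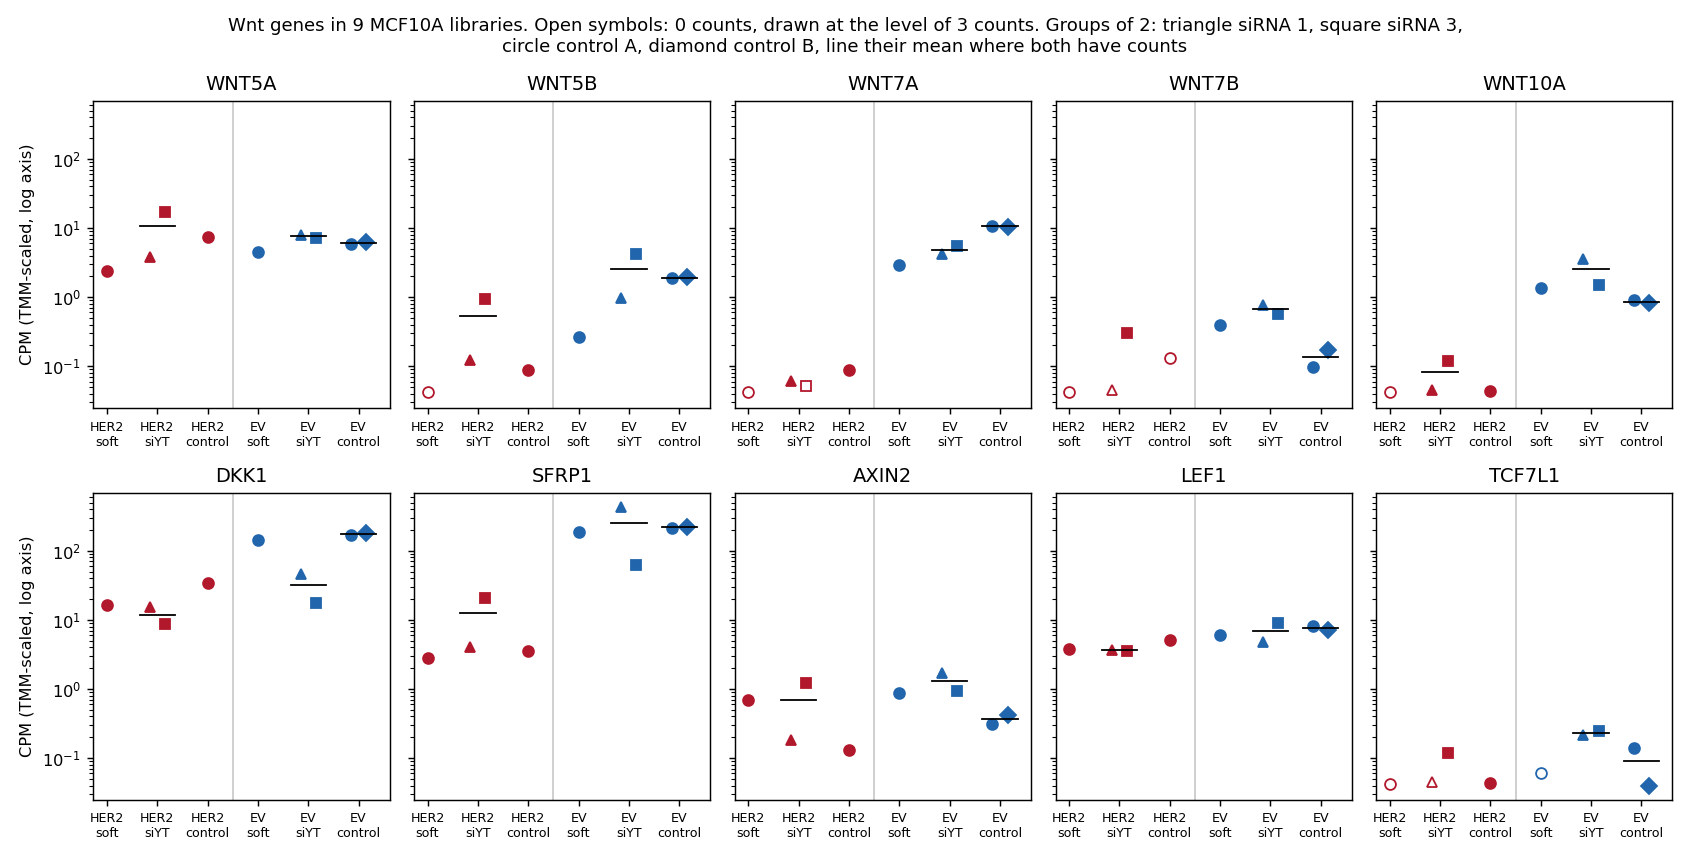
Level of each of the 10 genes in every library, in CPM on a log axis, with HER2 groups left of EV groups, soft for the hydrogel, siYT for YAP/TAZ siRNA, and 0 counts drawn as open symbols at the level of 3 counts. WNT7A stands at or below 0.0875 CPM in HER2 cells and at 2.94 to 10.7 CPM in EV cells, DKK1 is lowest where both siRNA and HER2 are present, and WNT5A and LEF1 overlap between lines.

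WNT7A, a ligand best known for patterning of limb and nervous system, was near 0 in HER2 cells. HER2 libraries held 0 counts on the hydrogel, 4 and 0 counts with siRNA 1 and siRNA 3, and 2 counts in the control. EV libraries held 2.94 CPM on the hydrogel, 4.20 and 5.44 CPM with siRNA 1 and siRNA 3, and 10.7 and 10.4 CPM in controls A and B. Pooled, 6 counts in HER2 libraries stood against 2344 in EV libraries, a 260-fold lower level (95% counting interval 119 to 709). The adjusted p over the 3 settings was 0.00399.

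By setting, the group-means model called 0 of the 10 genes in controls on plastic (4 at an unadjusted p under 0.05) and 0 on the hydrogel (5 at an unadjusted p under 0.05), where 0.8% and 1.34% of all genes were called lower. DESeq2 called 3 and 4 of the 10 there, and 2322 and 2732 of all genes in either direction. With YAP/TAZ siRNA the group-means model called 2, WNT7A and WNT10A, where 4.13% of all genes were lower. With the reagent term 3, 4 and 4 genes fell on plastic, on the hydrogel and with siRNA, beside 13.2%, 14.6% and 17.5% of all genes. WNT5B, WNT7A and DKK1 were among them each time, and WNT10A on the hydrogel and with siRNA.

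Taken alone, no setting other than YAP/TAZ siRNA gave WNT7A a call in the group-means model (adjusted p = 0.0219 with siRNA, 0.0562 on the hydrogel and 0.0689 in controls on plastic). With the reagent term the gene passed in all 3 (edgeR adjusted p = 0.00477, 0.0133 and 0.0139 in the same order). The siRNA call of the group-means model was lost without EV control A (adjusted p = 0.0770), B (0.0770) or the EV library with siRNA 1 (0.0693). The pooled ratio was 155-fold (60.1 to 569) with siRNA, at least 68.8-fold on the hydrogel, where HER2 cells had 0 counts and 3 counts was taken as the bound, and 121-fold (33.3 to 997) in controls. These intervals cover counting error only, on the assumption that reads are independent molecules, and leave out the spread between libraries.

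WNT10A, a canonical ligand known from teeth and hair, showed the same order of lines. It had 0, 3, 7 and 1 counts in HER2 libraries on the hydrogel, with siRNA 1, with siRNA 3 and in the control. In EV libraries it stood at 1.38 CPM on the hydrogel, 3.61 and 1.50 CPM with siRNA 1 and siRNA 3, and 0.904 and 0.819 CPM in controls A and B. The HER2 and EV libraries did not overlap, and the pooled level was 30.2-fold lower in HER2 cells (16.7 to 60.9, from 11 against 499 counts; adjusted p = 0.00663). With siRNA alone the adjusted p was 0.0373 in the group-means model, and it was 0.115, 0.115, 0.111 and 0.0871 without EV control A, EV control B, the EV library with siRNA 1 or the HER2 library with siRNA 1.

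WNT5B, a ligand of the non-canonical group, fell as well. It had 0 counts on the hydrogel, 0.121 and 0.937 CPM with siRNA 1 and siRNA 3, and 0.0875 CPM in the control of HER2 cells. EV cells had 0.267 CPM on the hydrogel, 0.957 and 4.22 CPM with siRNA 1 and siRNA 3, and 1.86 and 1.94 CPM in controls A and B. The lines overlapped, since HER2 cells with siRNA 3 exceeded EV cells on the hydrogel. The adjusted p was 0.0381, and it was 0.0890, 0.0872 and 0.0656 without EV control A, EV control B or the EV library with siRNA 3. The calls by setting with the reagent term were also lost without EV control A or B (adjusted p from 0.0636 to 0.131).

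The remaining ligands did not pass. WNT7B had 0, 0, 18 and 0 counts in HER2 libraries on the hydrogel, with siRNA 1, with siRNA 3 and in the control, against 7 to 46 counts in EV libraries (adjusted p = 0.0931, and 0.0378 in DESeq2, which called 20.6% of all genes lower). WNT5A, the best studied non-canonical ligand, ranged from 2.42 to 17.3 CPM with a median of 5.64 CPM in HER2 libraries, against 4.46 to 7.99 CPM with a median of 6.34 CPM in EV libraries. Its log2 fold change between lines was -0.04 ± 0.47 (SE, edgeR adjusted p = 1.00), and the HER2 libraries reached both below and above all EV libraries.

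DKK1 was lower in HER2 cells in each setting. The HER2 libraries had 16.6 CPM on the hydrogel, 15.1 and 8.69 CPM with siRNA 1 and siRNA 3, and 34.2 CPM in the control. The EV libraries had 145 CPM on the hydrogel, 45.6 and 17.7 CPM with siRNA 1 and siRNA 3, and 170 and 181 CPM in controls A and B. Within each setting the HER2 libraries lay below the EV libraries, while the HER2 control exceeded the EV library with siRNA 3. The log2 fold change over the 3 settings was -2.30 ± 0.37 (SE, edgeR adjusted p = 0.0122).

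By setting, DKK1 was 5.15-fold lower in HER2 than in EV controls, 8.72-fold lower on the hydrogel and 2.36-fold lower with YAP/TAZ siRNA. The value with siRNA varied with single libraries in the group-means model, its log2 fold change being -1.41 with all of them, -0.59 without the EV library with siRNA 1 and -1.93 without the EV library with siRNA 3. None of the 3 settings passed in the group-means model (edgeR adjusted p = 0.134, 0.0863 and 0.140). All did with the reagent term, where the log2 fold changes were -2.36 ± 0.23, -3.12 ± 0.25 and -1.31 ± 0.17 (edgeR adjusted p = 0.00732, 0.00444 and 0.00771 in the same order).

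SFRP1, a secreted Frizzled-like antagonist often silenced in breast cancer, was low in all HER2 libraries. It stood at 2.76 CPM on the hydrogel, 4.03 and 20.9 CPM with siRNA 1 and siRNA 3, and 3.55 CPM in the control of HER2 cells. EV cells had 189 CPM on the hydrogel, 437 and 62.9 CPM with siRNA 1 and siRNA 3, and 216 and 223 CPM in controls A and B. Every HER2 library was below every EV library, and the log2 fold change was -5.46 ± 0.96 (SE, edgeR adjusted p = 0.0147). The ratio was 62.0-fold in controls, 68.5-fold on the hydrogel and 17.4-fold with siRNA. The ratio with siRNA pools reagents that differed in opposite directions between the lines. No single setting passed in either edgeR model (adjusted p from 0.0729 to 0.143).

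Of the intracellular genes, none fell in the group-means model. LEF1, a nuclear partner of beta-catenin, had 3.74 CPM on the hydrogel, 3.69 and 3.53 CPM with siRNA 1 and siRNA 3, and 5.12 CPM in the control of HER2 cells. EV cells had 6.08 CPM on the hydrogel, 4.84 and 8.99 CPM with siRNA 1 and siRNA 3, and 8.05 and 7.03 CPM in controls A and B. The HER2 control stood above the EV library with siRNA 1, so the lines overlapped. The log2 fold change of LEF1 was -0.73 ± 0.27 (adjusted p = 0.0976) and passed with the reagent term at -0.71 ± 0.21 (edgeR adjusted p = 0.0416). That call was lost without EV control A (adjusted p = 0.156) or B (0.120).

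AXIN2, a scaffold of the beta-catenin destruction complex and itself a target of the pathway, ranged from 0.131 to 1.21 CPM in HER2 libraries, against 0.311 to 1.68 CPM in EV libraries (adjusted p = 0.395). TCF7L1, a TCF factor that mostly represses, had 0 to 7 counts in HER2 libraries and 0 to 20 in EV libraries (adjusted p = 1.00). Neither difference passed.

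Per kilobase of exon, DKK1 and SFRP1 were the highest of the 10 genes in EV controls. DKK1 had 19.1 CPM per kilobase in the HER2 control, against 98.3 ± 4.35 in EV controls (SD, n = 2), and SFRP1 had 0.745 against 46.1 ± 0.951. WNT7A had 0.0217 against 2.61 ± 0.042, LEF1 1.22 against 1.80 ± 0.172, WNT5A 1.19 against 0.968 ± 0.0444 and WNT5B 0.034 against 0.739 ± 0.0217 on the same scale. In the HER2 control the order of levels was DKK1, then LEF1 and WNT5A, which were close, then SFRP1, while the EV controls had DKK1, SFRP1, WNT7A, LEF1 and WNT5A in descending order.

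The effect of YAP/TAZ depletion was then compared with control siRNA on plastic. DKK1 was the one gene of the 10 that passed, in the model with the reagent term, and it was lower with both reagents in both lines. In HER2 cells it had 15.1 and 8.69 CPM with siRNA 1 and siRNA 3, against 34.2 CPM in the control. In EV cells it had 31.7 ± 19.7 CPM with siRNA, against 176 ± 7.77 CPM in controls (SD, n = 2 each). With the reagent term the log2 fold change was -1.57 ± 0.20 in HER2 cells (edgeR adjusted p = 0.0379), -2.62 ± 0.17 in EV cells (0.00541) and -2.10 ± 0.13 over both lines (0.00377), where 2.04%, 13.6% and 15% of all genes were called lower.

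The group-means model called none of the 10 genes and none of 16117 in these comparisons, although DKK1 had an unadjusted p under 0.05 in each. Its adjusted p was 0.433 in HER2 cells, 0.0842 in EV cells and 0.0645 over both. At an unadjusted p under 0.05 that model held 1751, 3473 and 4047 genes, and DESeq2 called 536, 2317 and 2979, in the same order. DESeq2 gave DKK1 an adjusted p of 6.49e-05 in EV cells and 3.74e-05 over both lines, with 7.22% and 8.22% of all genes lower. The call in HER2 cells was lost without EV control A (edgeR adjusted p = 0.108) or B (0.109).

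**Figure D2:**
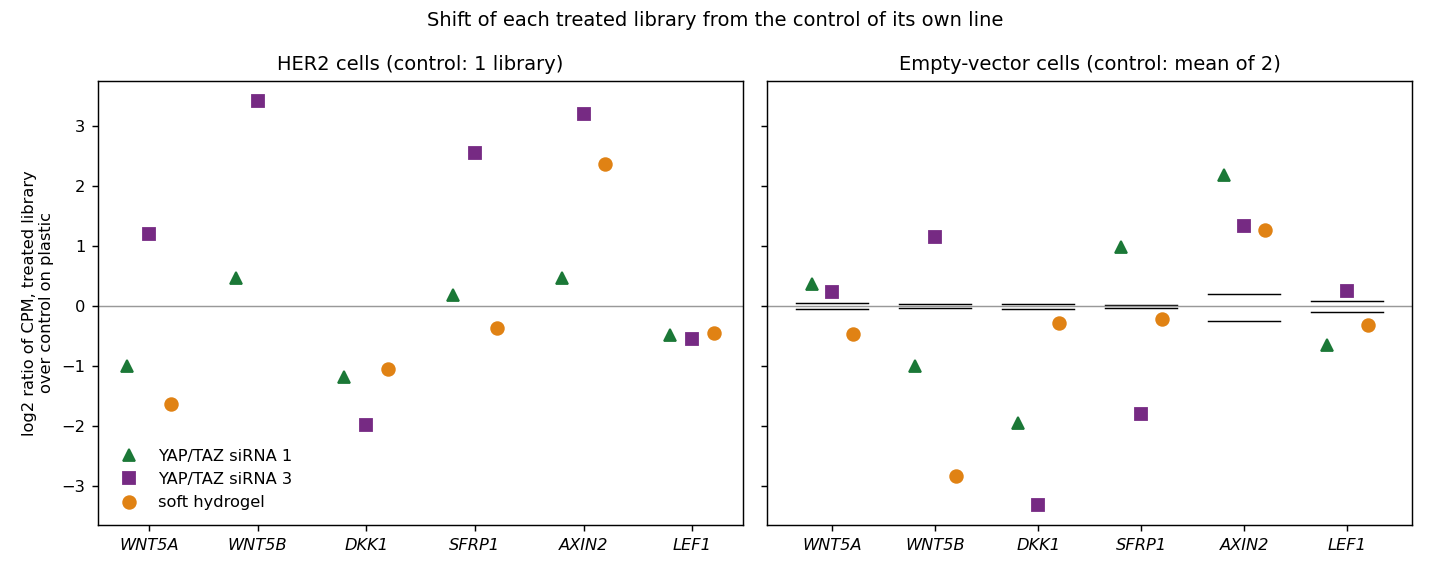
Log2 ratio of CPM of each treated library over the control of its own line on plastic, in HER2 cells (left) and EV cells (right), for the 6 genes with counts in both controls and in most treated libraries; black lines in the right panel mark EV controls A and B. DKK1 is below 0 in all 6 treated libraries, AXIN2 is above 0 in all 6, and WNT5B on the hydrogel is missing in HER2 cells, where it had 0 counts.

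The reagents were also compared with each other. Over both lines with the reagent term, siRNA 3 gave more WNT5B than siRNA 1, with a log2 fold change of 2.47 ± 0.42 (edgeR adjusted p = 0.0233), and less DKK1, with -1.09 ± 0.17 (adjusted p = 0.0189), where 16.7% of all genes were called. Without EV control A or B neither passed (adjusted p = 0.114 and 0.117 for WNT5B, 0.0616 and 0.0632 for DKK1).

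SFRP1 took opposite orders in the lines. It stood at 4.03 CPM with siRNA 1 and 20.9 CPM with siRNA 3 in HER2 cells, but at 437 CPM with siRNA 1 and 62.9 CPM with siRNA 3 in EV cells. WNT5A differed between reagents in HER2 cells, at 3.75 CPM with siRNA 1 and 17.3 CPM with siRNA 3 against 7.53 CPM in the control, and was 7.99 and 7.23 CPM in EV cells against 6.15 ± 0.28 CPM (SD, n = 2) in controls. Over both lines the reagent term did not pass for SFRP1 or WNT5A (edgeR adjusted p = 0.905 and 0.272). That term is a difference shared by both lines, so opposite shifts cancel in it, and differences within a line were not tested. Epithelial markers differed between reagents too, CDH1 being at 1111 CPM with siRNA 1 and 144 CPM with siRNA 3 in EV cells, and their part in the SFRP1 order was not tested.

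AXIN2 lay above the control of its line in each of the 4 siRNA libraries and in both hydrogel libraries. In HER2 cells it had 0.131 CPM in the control, from 3 counts, and 0.182 CPM with siRNA 1, from 12 counts. It had 1.21 CPM with siRNA 3 and 0.683 CPM on the hydrogel of these cells. In EV cells it had 1.68 and 0.926 CPM with siRNA 1 and siRNA 3 and 0.883 CPM on the hydrogel, against 0.311 and 0.423 CPM in controls A and B. The EV control libraries did not overlap with the treated ones, and the share of all genes that did the same was not counted. The log2 fold changes over both lines were 2.10 ± 0.89 with siRNA (edgeR adjusted p = 0.211) and 1.81 ± 0.97 on the hydrogel (0.410), so neither passed.

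WNT7A in EV cells lay below its controls in each treated library, at 4.20 and 5.44 CPM with siRNA 1 and siRNA 3 and 2.94 CPM on the hydrogel against 10.6 ± 0.17 CPM (SD, n = 2) in controls. Neither the change with siRNA (edgeR adjusted p = 0.354) nor that on the hydrogel (0.311) passed, while DESeq2 called the second (adjusted p = 0.0168, with 6.25% of all genes lower). WNT7B and WNT10A in EV cells lay above controls with siRNA. WNT7B had 39 and 46 counts with siRNA 1 and siRNA 3 against 7 and 13 in controls, and WNT10A had 185 and 121 against 64 and 62 (edgeR adjusted p = 0.445 and 0.265).

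The hydrogel was compared with plastic under control siRNA, with 1 hydrogel library in each line. In the group-means model none of the 10 genes and none of 16117 (0%) passed in HER2 cells, in EV cells or over both. At an unadjusted p under 0.05 that model held 1568, 3064 and 2589 genes, of which 0, 0 and 1 were among the 10, and DESeq2 called 313, 1872 and 1291. With the reagent term WNT5B was lower on the hydrogel in EV cells, at 0.267 CPM against 1.86 and 1.94 CPM in controls A and B. Its log2 fold change there was -2.82 ± 0.57 (edgeR adjusted p = 0.0330), where 9.95% of all genes were called lower, and the adjusted p over both lines was 0.0447, where 7.04% were. Both calls were lost without EV control A or B (adjusted p from 0.166 to 0.233).

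In HER2 cells 0.186% of genes passed with the reagent term on the hydrogel, and none of the 10 did (2 at an unadjusted p under 0.05). DESeq2 called none of the 10 in the group-means model and 1, DKK1, with the reagent term (adjusted p = 0.00988). With that term DESeq2 called 1886 of 16117 genes there. DKK1 was 16.6 CPM on the hydrogel against 34.2 CPM on plastic in HER2 cells (log2 fold change -1.04 ± 0.24, edgeR adjusted p = 0.0886 with the reagent term), and 145 CPM against 176 ± 7.77 CPM (SD, n = 2) in EV cells (adjusted p = 0.352). WNT5A was 2.42 CPM on the hydrogel against 7.53 CPM on plastic in HER2 cells (edgeR adjusted p = 0.644 in the group-means model). SFRP1 and LEF1 on the hydrogel lay within 0.46 log2 units below the plastic control of their line.

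Whether the lines responded differently was tested as an interaction. For the hydrogel and for YAP/TAZ siRNA, 0 of the 10 genes and 0 of 16117 passed in either edgeR model. The group-means model held 1901 and 736 genes at an unadjusted p under 0.05, and DESeq2 called 500 and 34 genes, 0 of them among the 10. The interaction closest to the threshold was that of DKK1 with siRNA, at 1.05 ± 0.27 on the log2 scale with the reagent term (unadjusted p = 0.0106, edgeR adjusted p = 0.236), the shift with siRNA being -1.57 in HER2 cells and -2.62 in EV cells.

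For DKK1, SFRP1, WNT5A and LEF1, which averaged 2 or more in log2 CPM, the genes with the most similar pattern were sought among 10044 genes, by the root mean square difference of log2 CPM over the 9 libraries, each gene centred on its own mean. PROSER2 and AMOTL2 were nearest to DKK1, at 0.55 and 0.59 log2 units against a median of 1.64 over all genes. JUP, the junction protein plakoglobin, and ALS2CL were nearest to SFRP1, at 0.58 and 0.66 against a median of 2.80. CDCP1 and MAP1B were nearest to WNT5A (0.27 and 0.30, median 0.88), and ICA1L and CENPT to LEF1 (both 0.22, median 0.64). AMOTL2, a known target of YAP and TAZ, ranged from 10.4 to 122 CPM and JUP from 4.33 to 492 CPM.

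The 10 genes were set beside 95 others of the pathway in 9 lists by role, of which 77 passed the low-count filter. Between lines over the 3 settings, 8 of the 77 rose and 17 fell in the group-means model, and 11 rose and 27 fell with the reagent term. The shares that rose were 10.4% and 14.3%, against 10.2% and 22.3% of all genes, so rises were not more frequent here. The shares that fell were 22.1% and 35.1%, against 15.6% and 27.2% of all genes, a difference that was not tested. Their median log2 fold change was -0.20 with groups at 0 counts set to 3 counts (-0.29 as fitted), against -0.04 (-0.09 as fitted) over all genes. Counting the 10 genes in their lists, of 13 ligands tested of 19, 5 fell and 0 rose in the group-means model. Of 9 inhibitors tested of 16, 5 fell and 0 rose. These falls include WNT5B, WNT7A, WNT10A, DKK1 and SFRP1, which were chosen with earlier results of these data known. They also include WNT4 and APCDD1, which had 0 counts in HER2 libraries. Those genes passed the low-count filter through EV libraries alone and could only be called lower. With the reagent term 6 ligands and 5 inhibitors fell, and 1 inhibitor, DKK2, rose by 1.68 ± 0.38 on the log2 scale (edgeR adjusted p = 0.0179, against 0.0535 in the group-means model). The counts of the lists that follow are from the group-means model, beside its 10.2% of all genes higher and 15.6% lower.

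Among other ligands, WNT4, a progesterone-induced ligand in the breast, had 0 counts in all 4 HER2 libraries against 713 in EV libraries, at least 158-fold lower (edgeR adjusted p = 0.0366). It was uneven in EV cells, at 3.82 CPM on the hydrogel, 9.31 and 0.358 CPM with siRNA 1 and siRNA 3, and 0.226 and 0.0661 CPM in controls. WNT9A stood at 0.197 to 0.937 CPM in HER2 libraries, against 1.50 to 11.5 CPM in EV libraries (log2 fold change -3.32 ± 0.65, adjusted p = 0.0192).

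Among other inhibitors, APCDD1, a membrane inhibitor of Wnt binding, had 0 counts in HER2 libraries against 680 in EV libraries, at least 151-fold lower (edgeR adjusted p = 0.00464). KREMEN1 and KREMEN2, receptors for DKK proteins, fell with DKK1. KREMEN1 stood at 1.71 to 5.49 CPM in HER2 libraries, against 11.9 to 28.0 CPM in EV libraries (log2 fold change -2.78 ± 0.38, adjusted p = 0.0083), and KREMEN2 was 15.2-fold lower from 6 against 137 counts (adjusted p = 0.0493).

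Of 16 receptors 3 rose and 2 fell, and 5 rose and 4 fell with the reagent term, the falls in the group-means model being no more common than among all genes. The Frizzled receptors FZD5 and FZD1 and the co-receptor LRP6, on which DKK1 acts, rose by 1.03 ± 0.26, 0.94 ± 0.22 and 0.70 ± 0.14 on the log2 scale (edgeR adjusted p = 0.0373, 0.0309 and 0.0192). PTK7, a co-receptor of polarity signalling, changed by -1.23 ± 0.32 (adjusted p = 0.0386), and FZD10 was 112-fold lower from 1 against 168 counts (counting interval 19.8 to 4443; adjusted p = 0.0148).

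Inside the cell, of 14 genes of the destruction complex and Dishevelled 2 fell (DVL2 and APC2), about the share of all genes, and 0 rose, and 4 fell and 0 rose with the reagent term. Of 13 TCF/LEF factors and cofactors, PYGO1 and TLE3 rose and CTNNBIP1 and TLE4 fell, and 2 rose and 5 fell with the reagent term. CTNNBIP1, which blocks beta-catenin from binding TCF, stood at 3.36 to 9.52 CPM in HER2 libraries, against 33.4 to 44.1 CPM in EV libraries (log2 fold change -2.61 ± 0.37, edgeR adjusted p = 0.00898). Of 12 feedback and target genes tested, CCND1 (cyclin D1) rose by 0.76 ± 0.16 as the mean of settings (edgeR adjusted p = 0.0233). The rise was absent in controls on plastic, at 496.1 CPM in HER2 cells against 522.2 and 516.5 CPM in EV cells. The log2 fold change of CCND1 was 0.79 on the hydrogel and 1.56 with YAP/TAZ siRNA. RNF43, which removes Frizzled from the membrane and is also in the list of R-spondin genes, changed by -1.81 ± 0.32 (edgeR adjusted p = 0.0155). APCDD1 was the other that fell.

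Of 9 planar polarity genes 4 fell and 1 rose, and 6 fell and 1 rose with the reagent term. VANGL2, a core polarity protein, had 0 counts in HER2 libraries against 1295 in EV libraries, at least 287-fold lower (edgeR adjusted p = 0.00273). DAAM1, CELSR2 and CELSR1 changed by -3.93 ± 0.47, -3.08 ± 0.31 and -1.31 ± 0.23 on the log2 scale (adjusted p = 0.00588, 0.00417 and 0.0144), and PRICKLE2 rose by 1.20 ± 0.20 (adjusted p = 0.0131). PORCN, which acylates Wnt ligands, changed by -1.04 ± 0.27 (adjusted p = 0.0397), and WLS, which carries them to the surface, rose by 0.46 ± 0.12 (adjusted p = 0.0443).

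**Figure D3:**
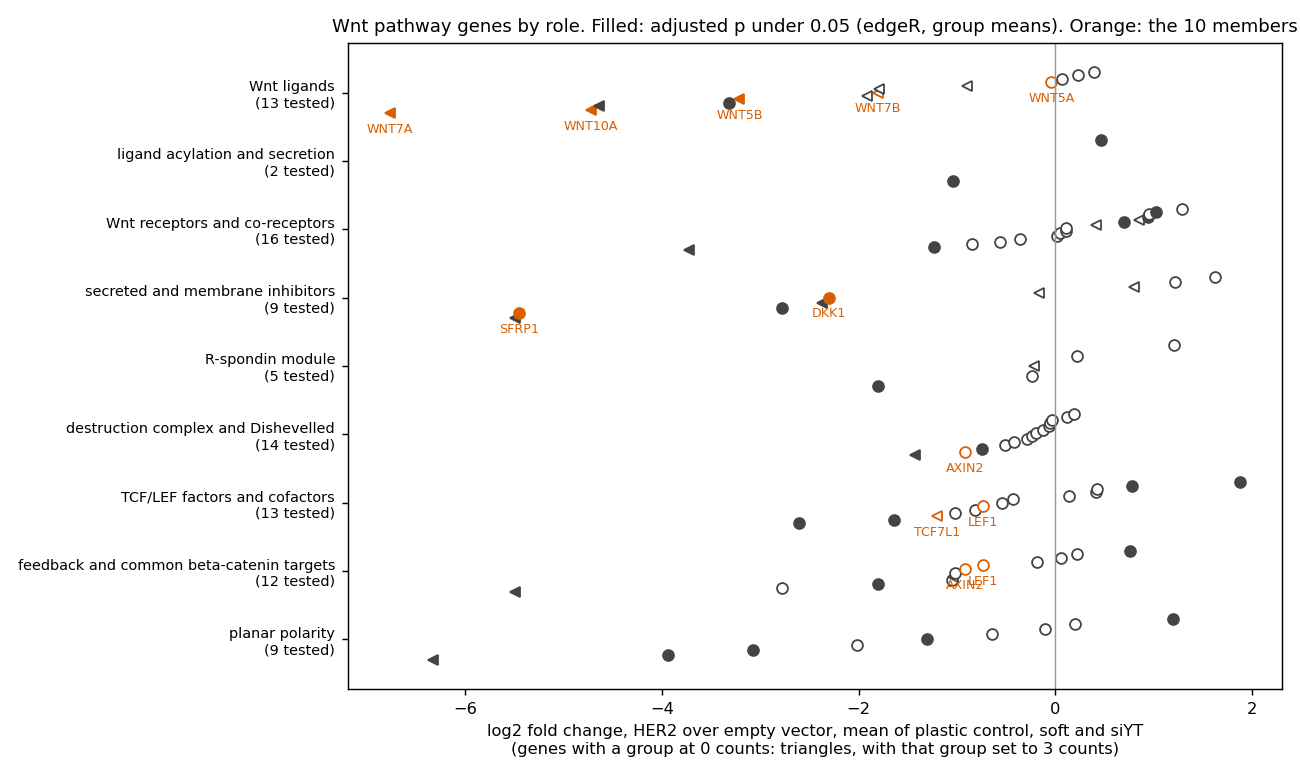
Log2 fold change of HER2 over EV cells, as the mean of 3 settings, for every tested gene of 9 Wnt lists, with the 10 genes in orange and triangles for genes with a group at 0 counts, drawn with that group set to 3 counts. The ligands and inhibitors that passed (filled) all lie left of 0, while the receptors and TCF/LEF cofactors that passed lie on both sides.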

How the data were processed

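RNA-seq counts were used for 9 libraries of 6 groups. The deposited table held whole-number counts per gene symbol, not normalized by the authors, with 25370 entries, 1 of them without a symbol and with 0 counts. STAR 2.5.3a, featureCounts, edgeR and hg19 are named per the submitters' processing notes. How featureCounts treated strand and multimapped reads, and the annotation, are not stated in the labels, so reads of overlapping antisense genes, or shared by related WNT genes, cannot be told apart.

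The test was that of edgeR 4.0.16 under R 4.3.3 (filterByExpr, minimum count 10; TMM; quasi-likelihood F test; Benjamini-Hochberg at 0.05). The model of 6 group means had 3 residual degrees of freedom, and a group of 1 library was assumed to vary like the others. SE is the absolute log2 fold change divided by the square root of F. Ratios are of pooled counts over scaled totals, with 95% exact conditional intervals and a floor of 3 counts over the group. DESeq2 1.42.0 was an alternative, on both models. The procedure was checked on simulated counts.

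HER2 and EV libraries with the same siRNA number were taken as paired, a judgement resting on 2 pairs, as the labels use the number for the reagent alone. Differences of siRNA 3 from siRNA 1 correlated between lines at r = 0.42 across 16117 genes, which are not replicates. The reagent term left 2 residual degrees of freedom. The common biological coefficient of variation was 0.408 without it and 0.209 with it. Replicate libraries differed by more than sampling noise (12.6 times for EV controls A and B, 679 times for the HER2 and 560.1 times for the EV siRNA libraries, over 12613 genes), and the siRNA pairs, of different reagents, entered the group-means model as replicates.

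The 10 genes, the lists and the tests were chosen with earlier results of these data known. Other pathway genes were named if past 0.05 in either edgeR model, at most 6 in each direction per list and comparison by size, and examples among them were chosen after their values were seen. Exon lengths are of GENCODE 29.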

Additional observations from a re-analysis of the deposited data

How the results depend on the processing

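Over the 3 settings together, the number of the 10 genes called lower in HER2 cells was 5, and it lay between 4 and 6 in DESeq2, with RLE size factors, without TMM, without the filter, with the reagent term as a replicate block, and without single replicates. It was 7 in DESeq2 with the replicate block, a fit added after the data were seen, which called 8144 of 16117 genes. By setting the count of genes depended on the model. In controls on plastic it was 0, but 3 in DESeq2, 1 without the filter, 3 with the replicate block and 0 to 1 without single replicates. On the hydrogel it was 0, but 4, 2, 4 and 0 to 2 in the same order. With YAP/TAZ siRNA it was 2, but 4 in DESeq2, 4 with the block and 0 to 3 without single replicates. For siRNA against control it was 0, but 1 in DESeq2, 1 without the filter and 1 with the block in EV cells and over both lines. It was also 1 with the block in HER2 cells. Over both lines the count varied without single replicates, as did the count over all genes. For the hydrogel against plastic it was 0, but 1 in DESeq2 and 1 with the block in EV cells, and 1 with the block over both lines. With the block, the calls for the hydrogel in EV cells and over both lines and for siRNA in HER2 cells went to 0 without EV control A or B, a count followed only after the data were seen. For siRNA 3 against siRNA 1 it was 2, beside 2695 of 16117 genes. That count varied widely without single replicates, as did the count over all genes. Without an siRNA library the term rested on the other line alone. In DESeq2 with the block the counts between lines were 4 on plastic, 5 on the hydrogel and 5 with siRNA. They were 1 in EV cells, 1 in HER2 cells and 3 over both lines for the hydrogel, and 1 in each for siRNA. Of all 16117 genes that fit called 4733, 5153 and 5984, then 4352, 1886 and 3583, then 4976, 2407 and 5534, in the same order. The cause was not tested.

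Across all genes, those called between lines were 166 on plastic, 244 on the hydrogel, 942 with siRNA and 4166 over the 3 settings, against 3597, 4137, 5293 and 7981 with the block and 2322, 2732, 3401 and 5921 in DESeq2. Without EV control A the counts were 0, 1, 79 and 1186, and without B 0, 1, 79 and 1303. Leaving out siRNA 1 or siRNA 3 of HER2 cells gave 1011 or 1004 on plastic, 1918 or 1908 on the hydrogel and 479 or 2406 with siRNA, and leaving out siRNA 1 or siRNA 3 of EV cells gave 155 or 596 with siRNA and 400 or 436 on the hydrogel. With the block the count on plastic was 502 without A, 617 without B and 9510 to 9606 without an siRNA library, and over the 3 settings it was 4638, 4813 and 11325 to 11748. Of 1416 values of the 10 genes under alternatives, 26 had the opposite sign, 0 of them of a called gene. Depth limits TCF7L1, WNT7B, AXIN2 in the HER2 control and, in HER2 cells, every ligand but WNT5A.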

Other observations

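With YAP/TAZ siRNA over both lines, 11 of the 77 other pathway genes rose and 5 fell with the reagent term, and 0 passed in the group-means model (edgeR). These are 14.3% and 6.49%, against 14.5% and 15% of all genes, at or below the shares over all genes in both directions. FZD7, a Frizzled receptor, rose by 2.04 ± 0.38 on the log2 scale (adjusted p = 0.0184), WLS by 0.67 ± 0.10 (0.0106), beta-catenin itself (CTNNB1) by 0.62 ± 0.12 (0.0202), and the polarity genes CELSR1 and CELSR2 by 1.24 ± 0.20 and 1.16 ± 0.21 (0.0128 and 0.0168). LGR4, an R-spondin receptor, changed by -0.74 ± 0.08 (adjusted p = 0.00689) and the TCF factor TCF7L2 by -1.07 ± 0.23 (0.0272). TCF7L2 stood at 2.41 and 2.20 CPM with siRNA 1 and siRNA 3 in HER2 cells, against 11.2 CPM in the control, and at 3.42 and 3.06 CPM with siRNA in EV cells, against 3.57 and 2.29 CPM in controls A and B.

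On the hydrogel, 2 of the 77 rose and 3 fell over both lines with the reagent term, which is 2.60% and 3.90% against 6.87% and 7.04% of all genes. They were the corepressors TLE2 and TLE1 by 2.41 ± 0.51 and 0.59 ± 0.13, and TLE3, APC and LGR4 by -0.68 ± 0.12, -0.50 ± 0.11 and -0.47 ± 0.10 (edgeR adjusted p from 0.0321 to 0.0479). None passed in the group-means model.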
